A study of Mus musculus with 17 samples.

Results

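The light chain variable segments of antibodies were followed in perigonadal white adipose tissue (pWAT) of mice that lack the long noncoding RNA *U90926* (U9-KO) and of wild-type (WT) mice. Members were the genes whose symbols begin with *Igkv* or *Iglv* and whose normalized counts summed to at least 10 over the 17 libraries, with *Igkv14-126* and *Igkv4-91* left out by name. This gave 85 members, 82 of the kappa and 3 of the lambda light chain, out of 163 annotated *Igkv* and *Iglv* symbols and 55401 genes. Another 76 symbols fell below the total of 10, and 52 of these were at 0 in every library. The members with the lowest totals were *Igkv4-78* (13), *Igkv10-95* (14) and *Igkv1-99* (14), and the nearest segments outside were *Igkv4-50* (9), *Igkv3-6* (8), *Igkv3-9* (7) and *Igkv4-60* (7). The members were thus selected on their summed counts, and those sums are given below as a description.

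The libraries came from 5 WT females, 5 U9-KO females, 3 WT males and 4 U9-KO males, 1 library per mouse. All mice were C57BL/6J and ate standard chow. The U9-KO mice lacked all 5 exons of *U90926* in every cell, and the WT mice were littermates from crosses of heterozygotes. The study's methods give 16 weeks as the age at collection. RNA from a portion of the pad, not sorted into cell types, was enriched with oligo(dT) and sequenced as stranded read pairs of 150 bases. Library totals were between 20243688 and 28620744 normalized counts. *U90926* had at most 1 normalized count in any WT library and 0 in the U9-KO libraries, so its level did not check the genotype labels. The tissue label was checked against 7 adipocyte genes, all of them detected in the 17 libraries. *Adipoq*, which encodes adiponectin, ranged from 27618 to 72328 normalized counts. Ovary genes summed to between 3287 and 93655 in the females, with both ends of the range in U9-KO mice, and to between 245 and 405 in the males.

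Each light chain is made from 1 variable segment, 1 joining segment and 1 constant region, and a developing B cell joins them by cutting and rejoining its DNA. All the progeny of that cell normally use the same variable segment, so a tissue with many clones shows many segments and a tissue with a large clone shows its segment above the rest. Plasma cells, which secrete antibody, hold far more of these RNAs per cell than resting B cells do. In mice most light chains are kappa, from a long cluster of variable segments on chromosome 6, and a minority are lambda, from a small cluster on chromosome 16. RNA was measured here in bulk tissue, where fewer cells of a type and less RNA per cell cannot be told apart.

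The kappa members lay on chromosome 6 between 67609713 and 70704177 (GRCm38), upstream of the joining segment *Igkj1* (70722562 to 70722599) and the constant region *Igkc* (70726435 to 70726966). The lambda members *Iglv1*, *Iglv2* and *Iglv3* lay on chromosome 16 between 19085017 and 19260859. The annotation lists 82 members as variable genes and 3 as variable pseudogenes, namely *Igkv2-116*, *Igkv2-107* and *Igkv3-11*. The germline coding sequences of the variable exon are shown for 6 members that carried the most counts or the greatest dominance, taken from the GENCODE M21 transcripts (GRCm38) and written 5′ to 3′ on the gene's own strand, up to the 300 bases nearest the end that joins. *Igkv3-2* (chr6:70698768-70699067, plus strand) and *Igkv3-10* (chr6:70572931-70573230, plus strand) are set side by side because both were high in the same mouse, and capitals mark the bases of each that the other lacks at the aligned position.
Igkv3-2: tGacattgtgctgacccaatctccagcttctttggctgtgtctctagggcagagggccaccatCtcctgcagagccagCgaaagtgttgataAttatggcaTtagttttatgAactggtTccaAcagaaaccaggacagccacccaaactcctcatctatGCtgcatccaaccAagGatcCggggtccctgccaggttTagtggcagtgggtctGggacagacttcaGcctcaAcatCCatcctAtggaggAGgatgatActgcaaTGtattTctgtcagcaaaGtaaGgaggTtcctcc
Igkv3-10: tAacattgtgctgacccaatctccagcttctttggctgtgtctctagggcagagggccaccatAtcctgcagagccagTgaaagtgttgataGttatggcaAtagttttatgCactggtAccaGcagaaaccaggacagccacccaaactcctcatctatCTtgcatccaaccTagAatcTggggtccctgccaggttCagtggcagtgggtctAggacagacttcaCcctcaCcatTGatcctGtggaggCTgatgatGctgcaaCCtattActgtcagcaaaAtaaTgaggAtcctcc
*Iglv1* (chr16:19085017-19085316, minus strand) and *Iglv2* (chr16:19260401-19260700, minus strand) made up nearly all lambda counts, and capitals mark their differences in the same way.
Iglv1: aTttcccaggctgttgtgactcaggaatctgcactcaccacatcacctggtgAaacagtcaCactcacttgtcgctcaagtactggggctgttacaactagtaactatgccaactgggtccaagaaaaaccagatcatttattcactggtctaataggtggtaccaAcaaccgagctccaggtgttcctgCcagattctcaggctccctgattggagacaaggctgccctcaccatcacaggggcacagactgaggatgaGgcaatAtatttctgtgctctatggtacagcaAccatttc
Iglv2: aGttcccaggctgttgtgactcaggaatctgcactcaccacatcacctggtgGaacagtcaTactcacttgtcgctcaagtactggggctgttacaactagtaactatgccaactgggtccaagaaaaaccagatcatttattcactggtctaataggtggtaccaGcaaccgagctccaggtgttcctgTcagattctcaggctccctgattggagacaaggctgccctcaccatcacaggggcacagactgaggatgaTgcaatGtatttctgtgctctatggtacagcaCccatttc
*Igkv6-17* (chr6:70371696-70371993, plus strand) and *Igkv8-16* (chr6:70386672-70386971, minus strand) are printed without capitals, as the segments that came second in one mouse and first in 4 mice.
Igkv6-17: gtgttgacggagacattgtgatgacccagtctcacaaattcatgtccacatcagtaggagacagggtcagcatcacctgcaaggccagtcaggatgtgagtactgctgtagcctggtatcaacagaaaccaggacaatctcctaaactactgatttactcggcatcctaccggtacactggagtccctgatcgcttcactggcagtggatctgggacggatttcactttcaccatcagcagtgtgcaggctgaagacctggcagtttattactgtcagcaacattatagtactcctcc
Igkv8-16: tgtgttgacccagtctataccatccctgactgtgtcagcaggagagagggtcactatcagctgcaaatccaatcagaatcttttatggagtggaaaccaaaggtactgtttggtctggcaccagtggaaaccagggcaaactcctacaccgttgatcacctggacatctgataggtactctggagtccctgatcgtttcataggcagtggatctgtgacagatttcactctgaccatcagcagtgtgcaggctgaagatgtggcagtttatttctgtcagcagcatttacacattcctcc

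How well reads can tell these segments apart varied. Over the whole transcript *Igkv3-2* and *Igkv3-10* were 90.2% identical, with 61 bases as the longest shared run, and *Igkv3-2* and *Igkv6-17* were 63.9% identical. *Iglv1* and *Iglv2* were 97.1% identical, with a longest shared run of 104 bases. Of the 85 members, 47 had a closest annotated segment of over 95% identity, and the median identity to the closest one was 95.5% (range 56.0% to 98.8%). Only 11 members shared any run as long as a 150-base read with another annotated segment, among them *Igkv3-10* (159 bases with *Igkv3-5*) and *Igkv6-17* (152 bases with *Igkv6-25*). Counts of members with such a close copy are uncertain, since reads could be split or dropped between the copies.

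Variable segment RNA was a small part of each library and differed widely between mice. The 85 members together held between 0.00159% (WT female 1) and 0.0461% (U9-KO female 1) of a library's normalized counts. In WT females their summed normalized count was 383, 1246, 900, 340 and 771, in the order of the replicate numbers. In U9-KO females it was 9903, 2259, 8386, 1736 and 1710. The female groups did not overlap, and U9-KO females 1 and 3 stood far above the other 3. The sums were 3392, 1599 and 647 in WT males and 600, 1713, 1296 and 2173 in U9-KO males. The male groups overlapped. With the left-out *Igkv14-126* and *Igkv4-91* added, the sum of WT male 2 was 4739 in place of 1599. As group means the sums were 728 ± 377 (SD, n = 5) in WT females, 4799 ± 4009 (SD, n = 5) in U9-KO females, 1879 ± 1394 (SD, n = 3) in males of the WT and 1446 ± 668 (SD, n = 4) in those of the U9-KO genotype. With the most abundant segment of each mouse taken out, the sums were 282 to 710 in WT females and 1050 to 7067 in U9-KO females, again without overlap.

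**Figure D1:**
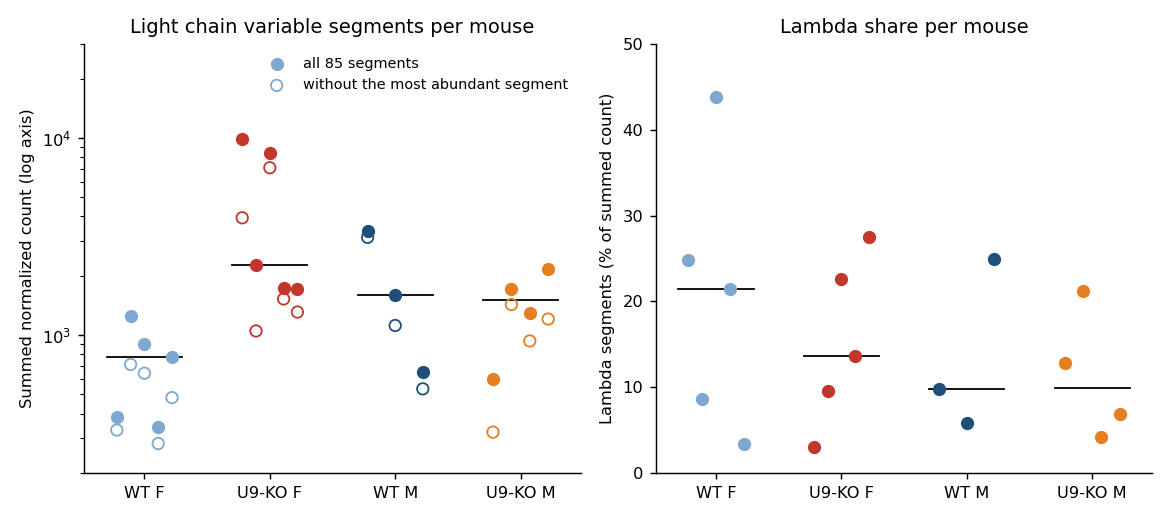
Left, the summed normalized count of the 85 light chain variable segments in each mouse (filled points) and the same without that mouse's most abundant segment (open points), on a log axis, with black lines at the group medians of the filled points. Right, the percent of the summed count in the 3 lambda segments, with black lines at the medians; the filled points of WT females lie at 340 to 1246 and those of U9-KO females at 1710 to 9903, while the lambda shares of all 4 groups overlap.

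A few segments held most of the RNA. The 85 totals summed to 39054, of which the 3 most abundant members held 33.3% and the 10 most abundant 60.0%, and 39 members reached 90%. Per kilobase of exon, the highest totals were those of *Igkv3-2* (16574), *Igkv8-16* (10288), *Iglv1* (7261), *Iglv2* (5434) and *Igkv1-117* (5057). Members were alike in length, with 313 to 404 exon bases, and dividing by length left the same most abundant segment in 17 of 17 libraries. Only 7 members were detected in all 17 libraries. In contrast, 33 of the 85 had over 50% of their total in 1 library and 12 had over 75%. An equal spread would give 5.88%. However, the summed counts ran from 340 to 9903, so shares would be unequal even if all mice used the segments alike. A member could also reach the total of 10 through 1 library, as *Igkv4-78* did with 13 counts in U9-KO male 1. U9-KO female 3 held the highest value of 22 members, WT male 1 of 14 and U9-KO female 1 of 11.

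*Igkv3-2* showed the strongest dominance in one mouse. Its normalized count was 5964 in U9-KO female 1, and 4, 8, 15 and 29 in U9-KO females 2 to 5. WT females had 6, 2, 1, 4 and 1. WT males had 184, 3 and 1, and U9-KO males had 7, 0, 35 and 1. Thus 95.2% of its total over 17 mice lay in U9-KO female 1, and WT male 1 was the next highest. In U9-KO female 1 it was 60.2% of the summed count of all members. *Igkv6-17* (1125, or 11.4%) and *Igkv3-10* (893, or 9.02%) followed in the same mouse. *Igkv6-17* was at 149 in WT male 1 and at most 17 in the other 15 mice, whereas *Igkv3-10* was at 1 in WT male 1 and at most 7 in every mouse but U9-KO female 1. *Igkv3-2* and *Igkv6-17* were thus both raised in the same 2 mice. U9-KO female 1 also had the highest ovary gene sum (93655) and the lowest adipocyte gene sum (170816) of the 17. WT female 4, with the next highest ovary gene sum (76038), had the lowest summed count of members (340). These are single mice, and the part of ovary or adipocyte RNA in the result was not tested.

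*Igkv8-16* was abundant in more mice. It was the top segment of WT females 2 (536, or 43.0% of the summed count) and 5 (289, or 37.5%) and of U9-KO females 2 (1209, or 53.5%) and 3 (1319, or 15.7%). In the other females it was between 7 and 134. It was at most 60 in every male. Its counts overlapped between WT females (7 to 536) and U9-KO females (51 to 1319).

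**Figure D2:**
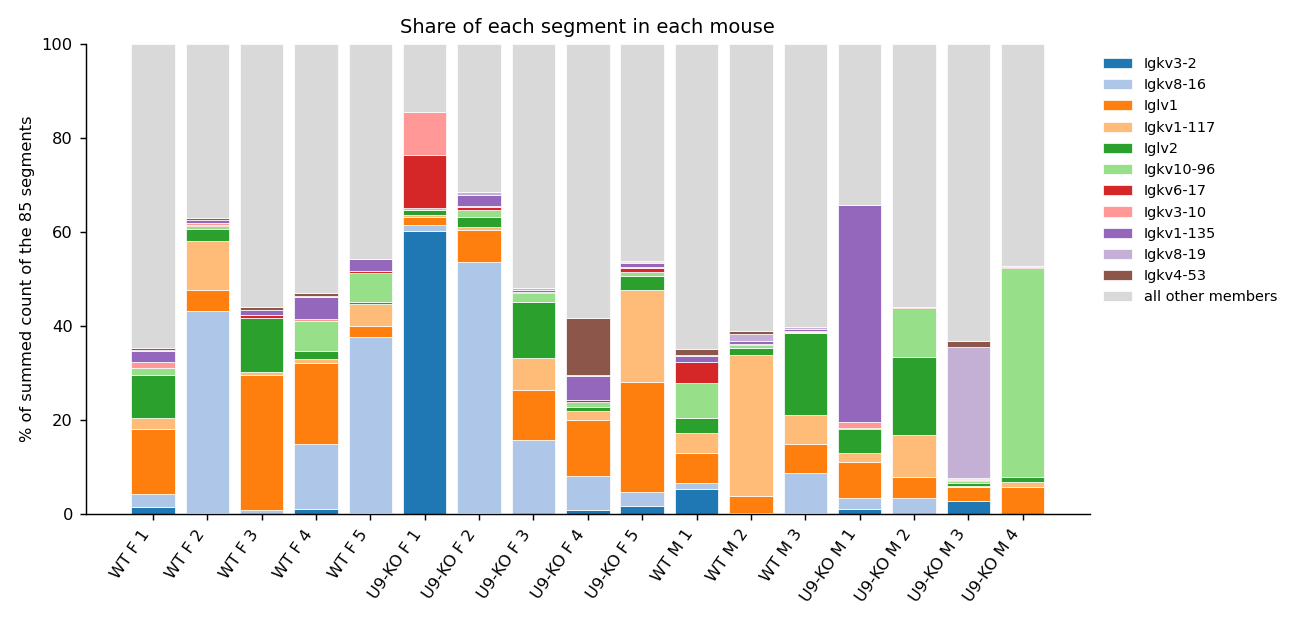
Share of each mouse's summed light chain variable count, in percent, held by the 9 segments that ranked first in at least 1 mouse and by *Igkv6-17* and *Igkv3-10*, with all other members in grey. *Igkv3-2* filled 60.2% of U9-KO female 1, *Igkv8-16* 53.5% of U9-KO female 2 and *Igkv1-135* 46.3% of U9-KO male 1, and none of these shares recurred in every mouse of a group.

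Other mice had other leading segments. *Iglv1* led in WT females 1, 3 and 4 (13.8%, 28.8% and 17.1%) and in U9-KO female 5 (23.4%). *Igkv4-53* led in U9-KO female 4 with 210 counts (12.1%) and was at most 46 elsewhere. *Igkv10-96* led in WT male 1 with 258 (7.61%) and in U9-KO male 4 with 966 (44.5%), *Igkv1-117* in WT male 2 with 480 (30.0%), and *Iglv2* in WT male 3 with 113 (17.5%) and U9-KO male 2 with 283 (16.5%). *Igkv1-135* led in U9-KO male 1 with 278 (46.3%) and *Igkv8-19* in U9-KO male 3 with 362 (27.9%). *Igkv8-19* was at 0 in the other 3 U9-KO males. Among the members, no group had 1 leading segment in all of its mice, although *Iglv1* or *Igkv8-16* led in each WT female. This does not hold with the 2 left-out segments added. *Igkv14-126* then led in WT males 1, 2 and 3 (9.99%, 65.3% and 16.5%), and *Igkv4-91* in U9-KO male 2 (14.3%). Several less abundant segments were also tied to 1 mouse. Named after their values were seen, *Igkv7-33*, the single annotated *Igkv7* segment, had 342 of its 345 counts in U9-KO female 3, and the pseudogene *Igkv2-116* had 127 of 128 in U9-KO female 5. *Igkv5-48* had 414 counts in U9-KO male 4 and at most 32 elsewhere. Among the remaining abundant segments, *Igkv16-104* had 441 of its 765 counts in U9-KO female 3 and *Igkv12-44* 267 of 584 in U9-KO female 1. *Igkv8-24* was spread over more mice, with 160 in U9-KO male 4, 149 in U9-KO female 3 and 119 in WT male 1.

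**Figure D3:**
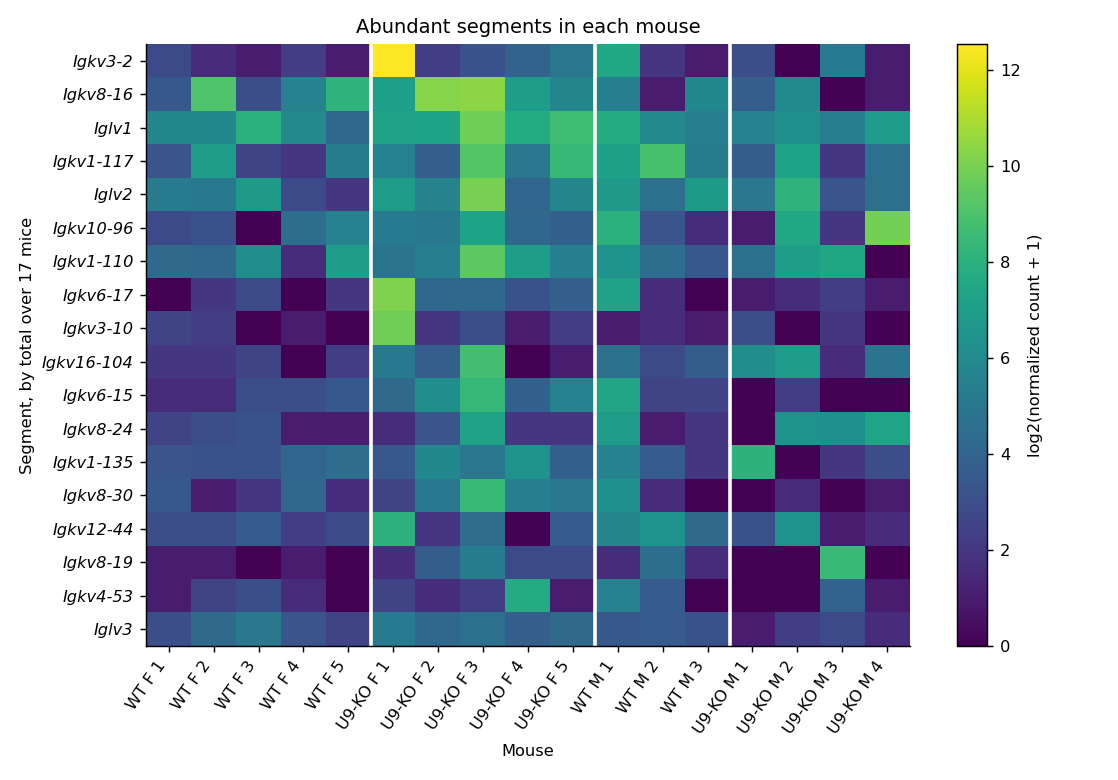
Colour gives log2(normalized count + 1) of the 15 members with the highest totals, the other members that led in a mouse and *Iglv3*, in rows by total, for the 17 mice in columns, with white lines between WT females, U9-KO females, WT males and U9-KO males. Bright cells are scattered over single mice, for example *Igkv3-2*, *Igkv6-17* and *Igkv3-10* in U9-KO female 1 and *Igkv10-96* in U9-KO male 4, whereas *Iglv1* was above 0 in all 17.

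The evenness of use was summarized by the effective number of segments, the inverse of the summed squared shares, which equals the number of members if all are used alike. It was 19.9, 4.75, 8.48, 13.7 and 5.53 in WT females and 2.59, 3.35, 13.6, 16.6 and 8.57 in U9-KO females. The female groups overlapped. In males it was 26.5, 8.28 and 12.3 in WT and 4.12, 13.7, 6.42 and 4.07 in U9-KO mice. The male groups overlapped as well, and WT male 1 had the most even use of the 17. Group means were 10.5 ± 6.3 (SD, n = 5), 8.95 ± 6.18 (SD, n = 5), 15.7 ± 9.6 (SD, n = 3) and 7.07 ± 4.55 (SD, n = 4) in the order WT females, U9-KO females, WT males and U9-KO males. The top segment's share was 28.0% ± 12.6 (SD, n = 5) in WT and 33.0% ± 22.3 (SD, n = 5) in U9-KO females, and 18.4% ± 11.2 (SD, n = 3) in WT and 33.8% ± 14.2 (SD, n = 4) in U9-KO male mice. The difference in females is smaller than the spread between mice. With *Igkv14-126* and *Igkv4-91* counted, the mean of WT males was 30.6%, and *Igkv14-126* had 3096 counts in WT male 2 against at most 532 in any other mouse.

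By family, the *Igkv3* segments held 23.2% of all kappa counts, the *Igkv8* segments 19.6% and the *Igkv1* segments 13.7%. The first share rested on 1 mouse, since *Igkv3* segments were 72.0% of kappa counts in U9-KO female 1 and 3.63% in the median mouse. *Igkv8* and *Igkv1* segments were 13.9% and 14.2% in the median mouse. *Igkv4* was the family with the most members, 19 of 82, and held 7.12% of kappa counts over the 17 mice. By position, 32 of the 82 kappa members (39.0%) lay within 1000 kb of *Igkj1* and held 59.8% of kappa counts. That share ranged from 9.37% in U9-KO male 1 to 92.1% in U9-KO female 1, with a median of 41.9%, and the segments at 2000 kb or more, 26 members, held 38.8% in the median mouse. Segments on the same strand as *Igkj1*, which join by deletion of the DNA between them, were 33 of 82. They held 34.9% of kappa counts in the median mouse, from 6.37% in U9-KO male 4 to 89.3% in U9-KO female 1.

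Lambda segments were a minority in every mouse. Their share of the summed count was 24.8%, 8.67%, 43.8%, 21.5% and 3.37% in WT females and 3.04%, 9.61%, 22.6%, 13.7% and 27.5% in U9-KO females. It was 9.82%, 5.82% and 24.9% in WT males and 12.8%, 21.2%, 4.24% and 6.86% in U9-KO males. Every pair of groups overlapped. With the left-out segments added, the share of WT male 2 was 1.96% in place of 5.82%. The means were 20.4% ± 15.8 (SD, n = 5), 15.3% ± 9.8 (SD, n = 5), 13.5% ± 10.1 (SD, n = 3) and 11.3% ± 7.5 (SD, n = 4) in the same order. Within each sex the means of the genotypes differed by less than the SD of either. The lambda share could be checked on genes outside the members, since each light chain RNA also holds a constant region. The share of *Iglc* counts in *Iglc* plus *Igkc* counts ranged from 1.41% to 28.1%, and it was below the share from variable segments in each of the 17 mice. Over the 17 mice the 2 shares rose together, with Pearson's r = 0.93 and Spearman's rho = 0.94 (two-sided permutation p = 1e-05 for each, the smallest that 100000 permutations can give, adjusted p = 2e-05 over 2 relations). Without WT female 3 and U9-KO female 5, the mice farthest from the median, r was 0.85. It was 0.96 among the 10 females and 0.90 among the 7 males (two-sided permutation p = 3e-05 and exact p = 0.0044).

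Among the lambda segments, *Iglv1* had 53, 56, 259, 58 and 18 normalized counts in WT females and 150, 152, 882, 208 and 400 in U9-KO females. *Iglv2* had 35, 33, 104, 6 and 3 in the former and 117, 48, 989, 16 and 51 in the latter. Both groups overlapped for each segment, and U9-KO female 3 was the highest of all mice for both. *Iglv3*, which is 53.8% identical to *Iglv1*, was between 1 and 34 in every mouse. *Iglv2* exceeded *Iglv1* in 3 mice: U9-KO female 3, WT male 3 (113 against 40) and U9-KO male 2 (283 against 77). In the mouse *Iglv1* joins to the constant regions *Iglc1* and *Iglc3* and *Iglv2* mostly to *Iglc2*, so the constant regions give a second reading. *Iglc2* was 45.1%, 59.5% and 73.6% of *Iglc1* to *Iglc3* counts in these 3 mice, and 10.8% to 47.6% in the other 14. WT male 3 and U9-KO male 2 were thus the highest of the 17 by both readings, while U9-KO female 3 lay below U9-KO female 1 (47.6%) by the constant regions. Over the 17 mice the *Iglv2* share of *Iglv1* and *Iglv2* counts rose with the *Iglc2* share, with r = 0.85 and rho = 0.71 (two-sided permutation p = 6e-05 and 0.0022, adjusted over 2 relations 6e-05 and 0.0022). Without U9-KO male 2 and WT male 3, which were the farthest from the median, r fell to 0.60 (two-sided permutation p = 0.017). Among females alone r was 0.72 and rho 0.75 (two-sided permutation p = 0.018 for each), and among males r was 0.89 and rho 0.61 (exact two-sided p = 0.017 and 0.17). The 2 segments are near-identical, and all values of a mouse share its library.

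**Figure D4:**
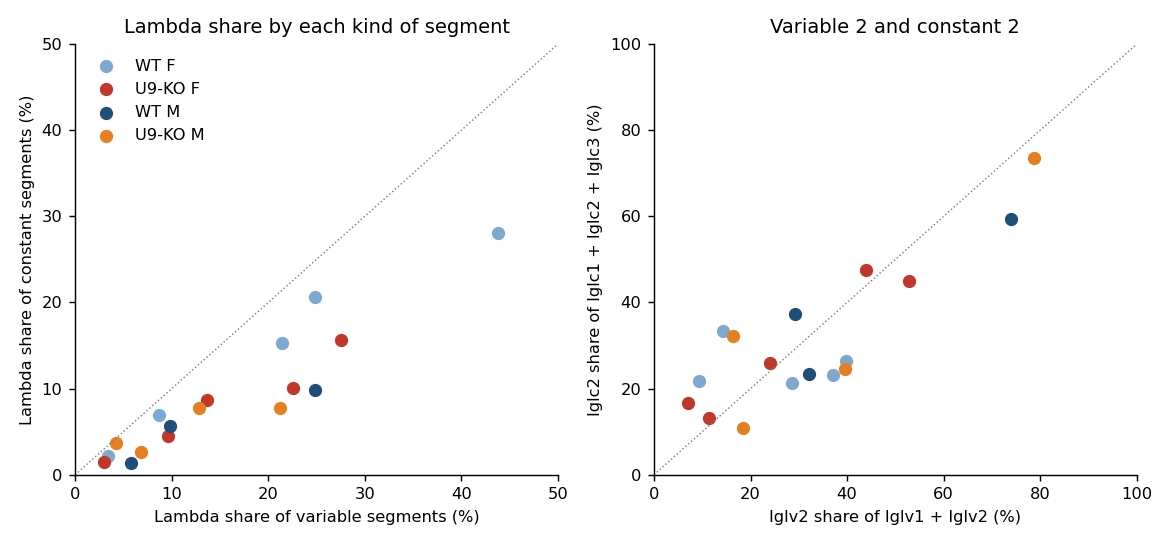
Left, the lambda share of variable segment counts (horizontal) and of constant region counts (vertical), both in percent, 1 point per mouse, coloured by group. Right, the percent of *Iglv2* in *Iglv1* and *Iglv2* counts (horizontal) and of *Iglc2* in *Iglc1* to *Iglc3* counts (vertical); the dotted lines mark equal shares, all 17 points of the left panel lie below the line, and U9-KO male 2 and WT male 3 lie at the upper right of the right panel.

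To ask whether U9-KO pWAT differed from WT, each sex was fitted on its own with limma on log2(normalized count + 1), over all genes with a total of at least 10 in the mice of that sex. In females 79 of the 85 members passed that filter, and the other 6 had totals of 0 to 9. By limma, 0 of the 79 passed the threshold of 0.05 after adjustment (0% of the 24825 genes tested did, and the smallest adjusted p was 1). Of the 79, 68 were above and 11 below WT, with a median log2 fold change of 1.41 and quartiles of 0.60 and 2.09. Over all genes tested 12392 of 24825 were above WT, with quartiles of -0.16 and 0.14. With members that were at 0 throughout 1 group set to a bound of 3 counts, the median was 1.35. At an unadjusted p under 0.05, 18 members were higher in U9-KO females (1.24% of all genes were) and 0 were lower (0.983% of all genes were). All members of a mouse share its library, and U9-KO females 3 and 1 held the highest value of 22 and 11 members. The 18, like the counts for males below, are therefore not separate results. The median lay between 1.11 (without U9-KO female 3) and 1.55 when each mouse was left out in turn. The count of 18 ranged from 14 without WT female 4 to 28 without U9-KO female 4. Of all genes, 1.08% and 2.49% were then higher at that p.

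For 4 members every U9-KO female lay above every WT female (0.169% of all genes did so), and for 0 members every one lay below (0.0685% of all genes). *Igkv6-17* had 0, 3, 6, 0 and 3 in WT and 1125, 17, 17, 8 and 13 in U9-KO females. The log2 fold change was 3.73 (SE 1.19), although U9-KO female 1 held 95.3% of the group's sum. *Igkv6-15* had 2, 2, 7, 7 and 10 in WT and 19, 75, 326, 14 and 44 in U9-KO females. The estimate was a log2 fold change of 3.14 (SE 0.77), with 68.2% of the group's sum in U9-KO female 3. *Igkv9-120* had 2, 5, 4, 0 and 5 in WT and 17, 8, 219, 43 and 22 in U9-KO females, a log2 fold change of 3.21 (SE 0.81). *Igkv8-19* had 1, 1, 0, 1 and 0 in WT and 2, 12, 38, 6 and 6 in U9-KO females, a log2 fold change of 2.64 (SE 0.62). With a WT sum of 3, *Igkv8-19* reached the filter's total of 10 only through the U9-KO females. For all 4 the adjusted p was 1 in limma's test.

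The smallest unadjusted p of a member in females belonged to *Igkv5-48*. It had 5, 1, 1, 4 and 0 in WT and 5, 15, 26, 20 and 13 in U9-KO females, so that the groups met at 5 (log2 fold change 2.53, SE 0.57, adjusted p = 1 in limma's test). *Iglv1*, the most abundant lambda segment, had 2.18 on this scale (SE 0.65, adjusted p = 1), and *Iglv2* one of 2.09 (SE 1.10, adjusted p = 1). *Igkv3-2* had the second largest fold change of the named members, 3.65 (SE 1.58, adjusted p = 1), with 99.1% of the U9-KO sum in U9-KO female 1. *Igkv8-16* had 2.21 (SE 1.29, adjusted p = 1). *Igkv4-68*, *Igkv19-93*, *Igkv5-39* and *Igkv8-30* had log2 fold changes between 1.73 and 2.88 with overlapping groups. The lowest of the 11 negative values was that of *Igkv4-86*, at -1.93 (SE 1.09). This segment, named after its value was seen, had 118 counts in WT female 2.

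**Figure D5:**
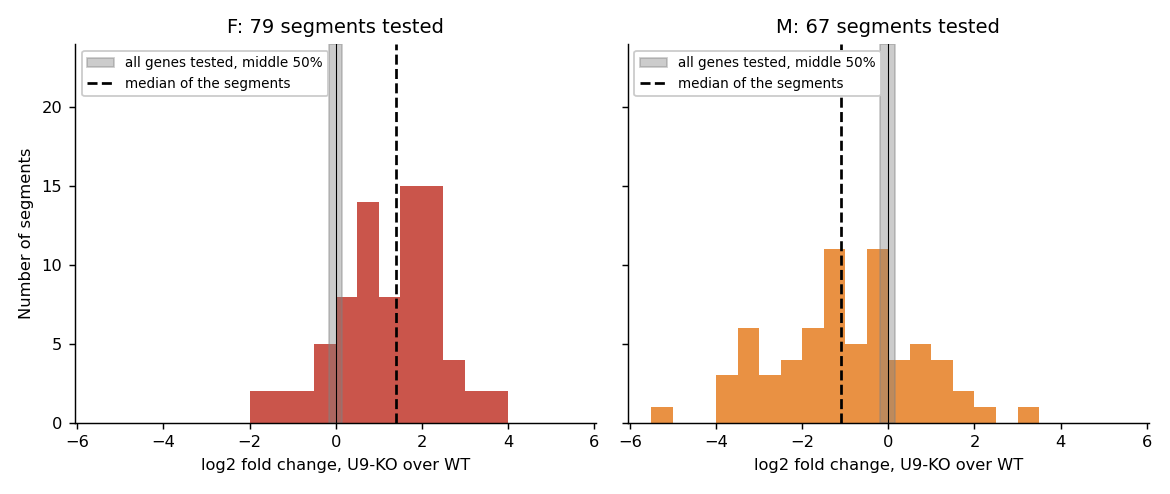
Number of members by log2 fold change of U9-KO over WT, on the log2(normalized count + 1) scale, in females (left, 79 members) and males (right, 67 members), with a dashed line at the members' median and a grey band between the quartiles of all genes tested. The medians stood at 1.41 in females and -1.09 in males with all mice, and the latter was -0.06 without WT male 1.

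In males 67 of the 85 members passed the filter, and the other 18 had totals of 0 to 9. By limma, 0 of these members and 0 of the 21930 genes tested (0%) passed after adjustment, with 0.612 as the smallest adjusted p. Of the 67, 17 were above and 50 below WT, with a median of -1.09 (-0.98 with groups at 0 set to 3 counts) and quartiles of -2.15 and 0.01, and of all genes 10997 were above WT. Here 3 members were at 0 in all WT males and 2 in all U9-KO males. At an unadjusted p under 0.05, 16 members were lower in U9-KO males (4.09% of all genes were) and 1, *Igkv8-21* (named after its value was seen, log2 fold change 3.14, SE 1.38), was higher (3.51% of all genes were). This direction depended on WT male 1. Without that mouse the median was -0.06, 30 of 62 members were above WT, and 11 members had an unadjusted p under 0.05, all lower (7.86% of all genes were lower at that p). Without it, limma called 71 genes after adjustment, and 0 of them were members. Among the members WT male 1 had the highest summed count of the males (3392) and the most even use of segments. With *Igkv14-126* and *Igkv4-91* added, WT male 2 was higher (4739 against 3933).

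For 8 members every U9-KO male lay below every WT male (3.8% of all genes did so), and for 0 members every one lay above (3.8% of all genes). Of the 8, *Igkv6-32*, *Igkv8-27*, *Igkv4-72*, *Igkv6-20*, *Igkv4-81* and *Igkv6-15* had sums of only 1 to 4 in U9-KO males. These members reached the filter's total of 10 only through the WT males. *Igkv6-32* had 23, 24 and 14 in WT and 0, 2, 0 and 0 in U9-KO males, with the smallest p of all genes (log2 fold change -3.98, SE 0.56, adjusted p = 0.612 in limma's test). *Igkv8-27* had 36, 172 and 12 in WT and 0, 2, 0 and 0 in U9-KO males (log2 fold change -5.05, SE 0.82, adjusted p = 0.612 in limma's test). *Igkv4-72* had 27, 3 and 16 against 0, 2, 0 and 0. *Igkv6-20* had 45, 2 and 23 against 1, 0, 0 and 1, and *Igkv4-81* had 35, 4 and 2 against 0, 1, 0 and 0, so that single counts separated the groups. *Igkv6-15* had 161, 5 and 5 in WT and 0, 4, 0 and 0 in U9-KO males. *Iglv3* had 10, 11 and 8 against 1, 4, 6 and 2, and *Igkv5-43*, named after its values were seen, 96, 11 and 9 against 2, 4, 3 and 6. Among members with overlapping groups, *Igkv15-103* had 181, 83 and 5 in WT and 0, 3, 2 and 7 in U9-KO males, and *Igkv17-127* 27, 85 and 97 against 6, 30, 0 and 5. For both, limma gave an adjusted p = 0.612. *Igkv3-7* and *Igkv14-111* had log2 fold changes of -3.04 (SE 0.93) and -2.33 (SE 0.72). The 15 members with the highest totals were picked on sums over the 17 mice. U9-KO females 1 and 3 added most to these sums (9903 and 8386), which favours members high there. Their direction in females is therefore not a separate result. Of the 15, 11 were below and 4 above WT in males, with a median of -0.80, against 15 of 15 above WT in females. In males 2 of the 15 members had an unadjusted p under 0.05, both lower. Among those with overlapping groups, *Igkv1-117* had a log2 fold change of -2.73 (SE 1.12), *Iglv1* had -0.30 (SE 0.55), *Iglv2* -0.80 (SE 0.97), *Igkv10-96* 0.79 (SE 2.14) and *Igkv1-110* -0.06 (SE 1.53).

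The difference between the sexes was tested as the interaction of sex and genotype in 1 fit over the 17 mice. By limma, 0 of 26289 genes (0%) passed after adjustment, and the smallest adjusted p of the members was 1. The difference, male minus female log2 fold change, was below 0 for 72 of the 85 members and above 0 for 13, with a median of -2.10, while over all genes 13214 of 26289 were below 0. At an unadjusted p under 0.05, 22 members were lower (1.97% of all genes were) and 1, *Igkv9-123* (named after its value was seen), was higher (1.49% of all genes were). The largest differences among named members were those of *Igkv6-15* at -6.73 (SE 1.44), *Igkv5-39* at -5.68 (SE 1.60) and *Igkv15-103* at -5.61 (SE 1.49). The median was between -2.50 and -1.50 when each mouse was left out in turn, with the smallest size without WT male 1. Every fit used the same mice as those above, so these values hold no new measurement.

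The rest of the light chain machinery moved as follows. *Igkc*, the kappa constant region, had 392, 1297, 712, 356 and 1093 in WT and 9490, 2573, 9071, 1883 and 1859 in U9-KO females, without overlap (log2 fold change 2.48, SE 0.55, adjusted p = 1 in limma's test). In males it had 4461, 5786 and 1021 in WT and 777, 2134, 1701 and 2372 in U9-KO mice, with overlap. Of the 9 tested genes of light chain constant and joining segments, 9 were above WT in females and 1, *Iglc3*, in males, with medians of 1.13 and -0.89. Kappa variable counts were 0.63 to 1.01 times the *Igkc* count in 15 of the mice and 0.26 and 0.48 times in WT males 2 and 3, the mice with 3096 and 137 counts of the left-out *Igkv14-126*. The genes of the surrogate light chain and of recombination, which mark developing B cells, summed to at most 34 in any mouse, and *Rag2* was at 0 in all 17.

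Markers of the cells that carry light chains were read beside these results. Of 9 B cell genes, 7 were above WT in females and 0 at an unadjusted p under 0.05, with sums of 559 to 1580 in WT and 388 to 1876 in U9-KO females. U9-KO female 3, with a summed light chain variable count of 8386, had the lowest B cell sum of the females. Of 10 plasma cell genes, 8 were above WT in females, and 4 had an unadjusted p under 0.05, all higher (1.24% of all genes were). Among the 2 below WT, *Irf4* had 371, 274, 3064, 1800 and 619 in WT and 347, 319, 572, 1552 and 299 in U9-KO females. One of the 4 higher genes, *Jchain*, which encodes the joining chain of secreted antibody, had 120, 275, 341, 113 and 302 in WT and 2531, 576, 3471, 690 and 753 in U9-KO females, so that U9-KO females 1 and 3 were again the highest. The plasma cell sums, which were led by genes that other cells also express, were 10516 to 14444 in WT and 10329 to 15596 in U9-KO females. In males 0 of the 9 B cell genes were above WT and 7 had an unadjusted p under 0.05, all lower (4.09% of all genes were), with sums of 449 to 1076 in WT and 315 to 383 in U9-KO males. Of the 10 plasma cell genes 8 were below WT and 0 had an unadjusted p under 0.05, with sums of 8996 to 11112 and 9003 to 10895. Of 7 T cell genes, 5 were above WT in females and 0 in males, with sums of 202 to 604 in females and 116 to 398 in males. At an unadjusted p under 0.05 by limma, *Cd8a* was higher in U9-KO females (log2 fold change 1.14, SE 0.32) and *Cd4* lower in U9-KO males, without overlap (-1.20, SE 0.32). The shares of all genes at that p were 1.24% higher in females and 4.09% lower in males. No B cell, plasma cell or T cell marker was at 0 in every library of a group. Among 5 genes of lymph node stroma, *Cxcl13* had 2157 counts in WT male 2 and 37 to 298 in the other males, and the sums were 1620 to 3391 in females and 933 to 3721 in males. *Glycam1* was at 0 in every WT library. The part of these markers in the results for the variable segments was not tested.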

How the data were processed

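Gene expression was measured by RNA-seq of pWAT from 17 mice. Per the labels and the study's methods, the authors trimmed the reads, aligned them to GRCm38 with STAR 2.7.3a, counted reads per gene and divided the counts by DESeq2 1.28.1 size factors. The deposited values are these normalized counts, rounded to whole numbers by the authors, and were treated as a score, not as raw counts. Raw reads were not used, so shares carry no binomial interval, and the error given is the spread between mice. The annotation release is not given in the sources used here. Coordinates, exon lengths and sequences came from GENCODE M21 (GRCm38).

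The members and all gene lists were chosen with earlier results of these data known. Groups and replicate numbers came from the labels, and the column headers of 2 male files carry another replicate number. Each mouse was 1 replicate, and p-values measure the spread between these mice. A table of the whole series repeats the 17 files and was not used.

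Genes were kept where their counts over the compared mice summed to 10 or more, and were fitted as log2(normalized count + 1) with limma 3.58.1 in R 4.3.3 (empirical Bayes with a mean-variance trend), with Benjamini-Hochberg adjustment over all genes tested and a threshold of 0.05. Fold changes on this scale understate those of low genes. The procedure was tested on simulated counts, in which only genes with a mean of at least 10 were changed. The simulated spread between mice was smaller than that of many members, so the test does not show how the fit performs for them. Relations across mice were tested with SciPy 1.17.1 by two-sided permutation with 100000 resamples, or exactly for 7 mice. Alternatives were a pseudocount of 0.5, no filter, a mean of at least 10, no trend, robust fitting, quantile and total-count scaling, a replicate block, 1 fit of all mice, and each mouse left out. Named segments were the 15 with the highest totals, those that led in a mouse, those with the 10 smallest p-values in each sex, the lambda segments and those next to the limit of 10; others are said to be chosen after their values were seen.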

Additional observations from a re-analysis of the deposited data

Results flagged for a closer look

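The highest and the lowest mouse of each group of 4 or 5 was compared with the others by the gap to its nearest neighbour over the range. This was done for the named segments and the summed count as log2(normalized count + 1). The lambda share, the top segment's share and the effective number were taken as they are. In 20 of 112 groups of values a mouse was set apart, each time for a segment. Chance gives about 1 in 20 for continuous values, but these segments were named in part for a high value in 1 mouse, and many values are small whole numbers, so that rate is no yardstick here. Groups of 3 were not tested.

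High single mice made up part of these. In U9-KO female 1, *Igkv3-2* had 5964 normalized counts, *Igkv6-17* 1125, *Igkv3-10* 893 and *Igkv14-111* 283. *Igkv4-53* had 210 in U9-KO female 4. Among U9-KO males, *Igkv5-48* had 414 in male 4, *Igkv8-19* had 362 in male 3 and *Igkv4-78* had 13 in male 1.

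The others were set apart by a few counts. In U9-KO male 2, *Igkv6-15* had 4 counts, *Igkv4-72*, *Igkv6-32* and *Igkv8-27* had 2 each and *Igkv4-81* had 1, each beside 3 mice at 0. *Igkv8-24* was at 0 in U9-KO male 1. *Igkv17-127* was at 1 in U9-KO female 3 and at 4 in WT female 5. *Igkv16-104* was at 0 in WT female 4. *Igkv1-99* in U9-KO female 2, *Igkv10-95* in WT female 2 and *Igkv3-7* in WT female 5 were at 1.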

How the results depend on the processing

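By limma, 0 members passed the adjusted threshold under every alternative run. The members' median log2 fold change lay between 1.28 and 1.95 in females and between -1.42 and -0.86 in males over the alternatives other than leaving mice out. It lay between 1.11 and 1.55 and between -1.39 and -0.06 with each mouse left out. Over the former alternatives, members at an unadjusted p under 0.05 numbered 12 to 23 higher in females (0.872% to 1.59% of all genes). In males 11 to 20 were lower (2.62% to 5.26%). Requiring a mean of at least 10 left 39 and 35 members. Same-numbered mice did not deviate together (correlations -0.44 to 0.11), so the replicate block rests on a number alone. U9-KO male 4 has no WT male of its number, so under the block it added nothing to the male fold changes. With the block, 23 were higher and 2 lower in females (1.07% and 0.765% of all genes), and 2 and 20 in males (2.64% and 3.71%).

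Of single segments in males, *Igkv1-110* was at 1.52, *Igkv10-96* at -0.81 and *Igkv8-19* at 0.27 with the block, and *Igkv3-10* at -0.15 with a pseudocount of 0.5. The block leaves U9-KO male 4 without a partner. Its values for *Igkv1-110*, *Igkv10-96* and *Igkv8-19* are thus those of the fit without that mouse, and are not a separate result. In females *Igkv8-27* was at 0.053 after quantile scaling. The mean top share of WT males was 30.6% with the left-out segments added. With each mouse left out, log2 fold changes that changed sign ranged in females from -0.43 to 1.58 (*Igkv12-44*), -0.045 to 0.63 (*Igkv17-127*), -0.30 to 0.28 (*Igkv6-32*) and -0.50 to 0.61 (*Igkv8-27*). In males they ranged from -0.95 to 1.52 (*Igkv1-110*), -2.05 to 0.66 (*Igkv1-135*), -0.81 to 2.65 (*Igkv10-96*), -1.91 to 1.31 (*Igkv19-93*), -0.19 to 0.47 (*Igkv3-10*), -2.47 to 0.79 (*Igkv3-2*), -2.88 to 0.13 (*Igkv5-48*), -2.93 to 0.68 (*Igkv6-17*), -2.56 to 0.54 (*Igkv8-19*) and -0.79 to 0.42 (*Iglv1*). The cause of the sign changes with a mouse left out was not tested.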
